A study of Mus musculus with 12 samples.

Results

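Nuclear-encoded respiratory chain genes were examined in primary mouse B cells undergoing a DNA damage response. They were taken as every row of the deposited expression table whose gene name begins with Nduf, Uqcr or Atp5, or with Cox4 to Cox8, together with Sdha, Sdhb, Sdhc, Sdhd and Cyc1, leaving out names that contain -ps. This gave 92 of 29486 genes, of which 44 belong to complex I, 4 to complex II, 9 to complex III, 19 to complex IV and 16 to complex V (ATP synthase). The 4 names left out (Atp5l-ps1, Atp5l-ps2, Atp5k-ps2 and Atp5l2-ps) had values between 0.41 and 20.7.

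Splenic B cells of C57BL/6Babr mice were purified with a B cell isolation kit and activated in culture with lipopolysaccharide (LPS, a bacterial activator of B cells) at 10 µg/ml, and their polyadenylated RNA was sequenced. Every group therefore consists of LPS-activated cells. The LPS group received nothing further after 48 h. The LE group was then given etoposide, a topoisomerase II inhibitor that causes DNA double-strand breaks, at 20 µM for 4 h. The LEKU group was given KU55933 (spelled KU59933 in 1 label field), an inhibitor of the damage kinase ATM, at 10 µM for 1 h after 47 h of LPS, and then the same etoposide treatment. There was no group with KU55933 alone, so an effect of the inhibitor itself and an effect on the damage response cannot be told apart. The study's methods do not state when the LPS group was collected, nor name a vehicle. Any difference in culture time or vehicle between it and the LE group therefore cannot be told apart from etoposide. Each group had 4 libraries. The mice were young adults per the study's methods, and their sex is not given in the sources used here.

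The respiratory chain moves electrons from NADH and succinate to oxygen through complexes I to IV and uses the proton gradient this builds to drive ATP synthesis by complex V. Most of its subunits are encoded in the nucleus and imported into mitochondria, whereas a small set of core subunits is encoded by mitochondrial DNA. Complexes I, III, IV and V therefore need supply from both genomes, while complex II is wholly nuclear. Several complex IV subunits exist as a ubiquitous isoform and a paralogue restricted to muscle, lung or testis. B cells enlarge their mitochondrial mass when they are activated to divide. The 13 genes of mitochondrial DNA are not analysed here.

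The table allowed no test. The 4 columns of each group were proportional to each other across all genes to within 2.8e-14 on the log2 scale, which shows that they hold a mean fitted per group multiplied by a scale factor per library, without the spread between replicates. Cox6b2, for example, was listed at 35.6, 39.5, 41.1 and 37.0 in the 4 LPS columns, at 1090, 1222, 1480 and 1185 in the 4 LE columns and at 578, 652, 698 and 710 in the 4 LEKU columns, and the same ratios between columns recurred for every other gene. Each gene therefore has 1 value per condition, obtained by dividing a column by its library's size factor, and no p-value is given. Changes are log2 ratios at a pseudocount of 1, and a gene counts as higher or lower when its change passed 1.5-fold with these size factors. Calls were repeated under 4 other scalings (TMM factors, library totals, quantile normalization and the columns as deposited). Those that changed are named with the comparison or beside the gene of the chain, and for lists of other genes in LE against LPS. Shares of all genes are given with these size factors and this limit only. Counts under other scalings or fold limits therefore have no such share beside them. Fold values are plain ratios of the condition values. Errors are counting errors only (95% intervals), a lower limit on the true error. Column totals were 20700000 to 23900000 in LPS, 22500000 to 30600000 in LE and 20400000 to 25100000 in LEKU. Of the 92 genes, 89 had a value of at least 10 in at least 4 libraries, as did 15616 of all genes.

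The cells carried B cell transcripts in every condition, with Cd79b, a chain of the B cell receptor, at 20759 in LPS, 13734 in LE and 17440 in LEKU. All 7 B cell markers were lower in LE than in LPS, and 4 of them passed 1.5-fold. Markers of other cells were scarce. The 7 T cell markers summed to 18.6, 44.6 and 25.2 in LPS, LE and LEKU, and Cd3e was at 0.67, 1.44 and 1.82. Of 7 macrophage markers, 6 were in the table and summed to 402, 478 and 436, and the 6 red blood cell markers in the table summed to 210, 190 and 118. The damage label was checked with Cdkn1a, the p53 target encoding p21, which stood at 397, 13737 and 10914. In bulk RNA, fewer cells of a type and less RNA per cell cannot be told apart, and the part that these marker shifts play in the values below was not tested.

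The stretches of DNA below surround the RefSeq start sites of members whose values differed most between conditions (Cox6b2, Ndufaf3, Ndufb2 and Ndufab1), of Ndufa11, which passed 1.5-fold and carries a match to the site of NRF1, a known activator of respiratory genes, and of Atp5j, which represents the complex V genes. Each runs 5′ to 3′ on the gene's strand from 250 bases before to 50 bases after the start site (RefSeq, GRCm38.p6). Capitals mark exact matches, on either strand, to the 4 motifs searched.
Cox6b2, chr7:4753045-4753344, minus strand: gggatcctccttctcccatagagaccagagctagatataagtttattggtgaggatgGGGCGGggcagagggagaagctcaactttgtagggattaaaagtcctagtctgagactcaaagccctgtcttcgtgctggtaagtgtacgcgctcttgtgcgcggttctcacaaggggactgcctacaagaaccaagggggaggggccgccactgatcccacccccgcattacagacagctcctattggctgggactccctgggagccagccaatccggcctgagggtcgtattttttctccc
Ndufaf3, chr9:108567387-108567686, minus strand: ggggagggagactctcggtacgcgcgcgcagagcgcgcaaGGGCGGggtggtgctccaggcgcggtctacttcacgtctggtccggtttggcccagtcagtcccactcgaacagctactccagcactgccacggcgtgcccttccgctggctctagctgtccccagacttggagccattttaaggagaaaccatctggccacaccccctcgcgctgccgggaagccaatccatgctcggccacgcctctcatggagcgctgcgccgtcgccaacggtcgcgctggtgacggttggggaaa
Ndufb2, chr6:39592315-39592614, plus strand: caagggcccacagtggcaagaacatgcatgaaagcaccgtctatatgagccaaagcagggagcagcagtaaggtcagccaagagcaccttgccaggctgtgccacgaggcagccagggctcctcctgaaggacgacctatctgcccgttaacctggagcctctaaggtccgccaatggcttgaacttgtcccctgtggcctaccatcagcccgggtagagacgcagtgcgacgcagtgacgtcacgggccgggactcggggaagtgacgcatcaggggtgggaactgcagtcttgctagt
Ndufab1, chr7:122101799-122102098, minus strand: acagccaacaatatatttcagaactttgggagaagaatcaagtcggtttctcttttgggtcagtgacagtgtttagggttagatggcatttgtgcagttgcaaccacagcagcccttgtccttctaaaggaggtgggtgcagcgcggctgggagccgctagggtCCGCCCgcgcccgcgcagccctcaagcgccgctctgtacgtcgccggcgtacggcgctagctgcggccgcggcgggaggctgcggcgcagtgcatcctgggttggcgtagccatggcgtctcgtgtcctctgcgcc
Ndufa11, chr17:56717512-56717811, plus strand: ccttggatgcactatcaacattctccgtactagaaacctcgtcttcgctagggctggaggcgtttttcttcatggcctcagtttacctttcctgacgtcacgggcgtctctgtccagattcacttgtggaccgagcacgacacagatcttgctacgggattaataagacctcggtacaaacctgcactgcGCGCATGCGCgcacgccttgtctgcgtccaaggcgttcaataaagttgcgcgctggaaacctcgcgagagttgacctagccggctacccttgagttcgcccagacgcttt
Atp5j, chr16:84834927-84835226, minus strand: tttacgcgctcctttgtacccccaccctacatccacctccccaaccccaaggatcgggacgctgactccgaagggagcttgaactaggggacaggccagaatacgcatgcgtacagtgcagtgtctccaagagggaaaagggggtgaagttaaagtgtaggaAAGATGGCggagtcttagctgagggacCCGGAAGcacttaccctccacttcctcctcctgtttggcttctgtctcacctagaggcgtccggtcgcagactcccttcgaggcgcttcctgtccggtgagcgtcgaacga
The matches were a GC box (GGGCGG, bound by Sp1-type factors) beginning at position -193 from the start site of Cox6b2, at -210 in Ndufaf3 and, on the opposite strand, at -86 in Ndufab1. In Ndufa11 the NRF1 motif (GCGCATGCG) matched on both strands at the overlapping positions -60 and -59, which form 1 palindromic run. Of the 2 Atp5j windows, the one printed held an ETS motif (CCGGAAG) at -61 and a YY1 motif (AAGATGGC) at -88. The other, upstream at the annotated gene start, held neither motif and had GC boxes on the opposite strand at -88 and 35. The printed window lies inside the divergent gene Gabpa, with which Atp5j shares 701 bp on opposite strands and which encodes a subunit of the ETS factor GABP. The Ndufb2 window held none of the 4 motifs.

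Of the 92 genes, 76 matched a RefSeq promoter entry, with 82 windows between them. Genes for which no entry was used include Atp5a1, Cox4i1, Cox4i2, Cox6a2, Cox6c, Cyc1, Ndufa2, Ndufa4l2, Ndufaf6, Ndufb9, Ndufs1, Sdhc, Uqcrb, Uqcrc2 and Uqcrq. The NRF1 motif was found in 12.2% of the 82 windows, against 1.75% of all 32851 windows and 3.43% of the 13561 windows of genes that passed the filter. YY1 matches occurred in 14.6%, against 2.75% and 4.31%. ETS matches occurred in 20.7%, against 8.86% and 17.0%, and GC boxes in 42.7%, against 35.7% and 59.8%. The 10 genes with an NRF1 match (Atp5g2, Atp5k, Atp5l, Cox6a1, Ndufa11, Ndufa8, Ndufaf4, Ndufaf5, Uqcr11 and Uqcrc1) had a median log2 change of -0.21 in LEKU against LE, and the genes with a window but no match had -0.23. For the YY1 motif the medians in the same comparison were -0.32 with a match and -0.22 without. A match describes these letters only, and whether a factor binds there was not measured.

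Respiratory chain transcripts were abundant in LPS-activated B cells. Their median value per kilobase of exon in LPS was 951, against 123 over all genes that passed the filter, and together the 92 genes took 0.870% of the table's total in LPS, 0.928% in LE and 0.831% in LEKU. The most abundant per kilobase were the catalytic subunits of ATP synthase, Atp5a1 (alpha subunit) at 7815 and Atp5b (beta subunit) at 7146, followed by the complex IV subunit Cox8a at 4234. Complex V alone took 0.386% of the total in LPS, complex I 0.206%, complex IV 0.133%, complex III 0.0903% and complex II 0.0551%. Complex medians per kilobase lay between 629.5 for complex I and 1661 for complex IV, and the assembly factors of complex I, which build the enzyme without staying in it, had a median of 152. The genes were short, with a median exonic length of 1696 bp against 3754 bp for all genes that passed the filter, and were spread over 19 chromosomes.

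**Figure D1:**
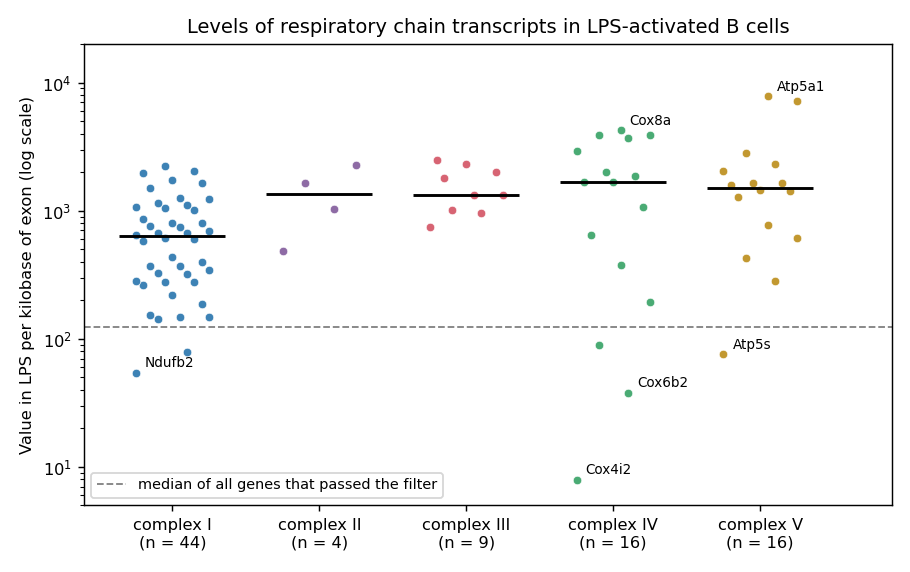
Value in LPS-activated B cells per kilobase of exon (log scale) for the 89 respiratory chain genes that passed the filter on low values, 1 point per gene, grouped by complex. Black bars are medians per complex, and the dashed line is the median of all genes that passed the filter (123). Most genes lie above that line, with Atp5a1 highest (7815) and Cox4i2 lowest (7.95).

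The 3 genes that did not pass the filter were tissue-restricted isoforms of complex IV. Cox7b2 was at 0.08 in LPS, 0.09 in LE and 0.08 in LEKU. Cox8b was at 0.37, 0.70 and 0.51, and Ndufa4l2, a paralogue of Ndufa4, was at 2.77, 3.84 and 6.55. Cox4i2, the lung isoform of subunit 4, passed only through the LE columns, so its differences between LE and both other groups are fixed in part by the filter.

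The first comparison, LE against LPS, sets cells given etoposide for 4 h against cells without it. Most of them differed little between the 2 conditions, while a few stood far from the rest. The largest difference was in Cox6b2, the testis isoform of a complex IV subunit, which was 27.3-fold higher in LE. Ndufb2, Ndufab1, Ndufb6, Ndufa5 and Ndufa11, all accessory subunits of complex I, were also higher, together with the low isoforms Cox4i2 and Cox7a1. Ndufaf3, a complex I assembly factor, and Cox6a2, the muscle isoform of another complex IV subunit, were lower.

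In all, 8 of 89 genes were higher in LE by over 1.5-fold, where 24.1% of all genes that passed the filter were, and 2 were lower, where 13.5% of all genes were. The split was 6 higher and 4 lower with TMM factors and 13 higher and 1 lower in the columns as deposited. In those columns Ndufa8, Ndufa12, Ndufc2, Cox4i1 and Cox8a were higher as well. Ndufa5 and Ndufa11 did not pass with TMM factors, nor did Ndufa5, Cox4i2 and Cox7a1 after quantile normalization, and Cox6a2 did not in the columns as deposited. Counting either direction, 11.2% of the respiratory chain genes and 37.6% of all genes passed 1.5-fold. Since changes depend on level, the count was repeated among genes with a mean of at least 1000, where 1 of 59 respiratory chain genes (Ndufab1) and 28.1% of 5443 genes passed it. The interquartile range of the log2 changes was 0.25 in the respiratory chain and 0.86 over all genes. The median change was 0.01, against 0.07 over all genes. Where the group stood relative to all genes was not settled, since its median less that of all genes ran from -0.06 to 0.11 over 5 scalings, and the all-gene median itself moved from 0.07 to -0.07 with TMM factors, 0.11 with library totals, -0.08 after quantile normalization and 0.32 in the columns as deposited.

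**Figure D2:**
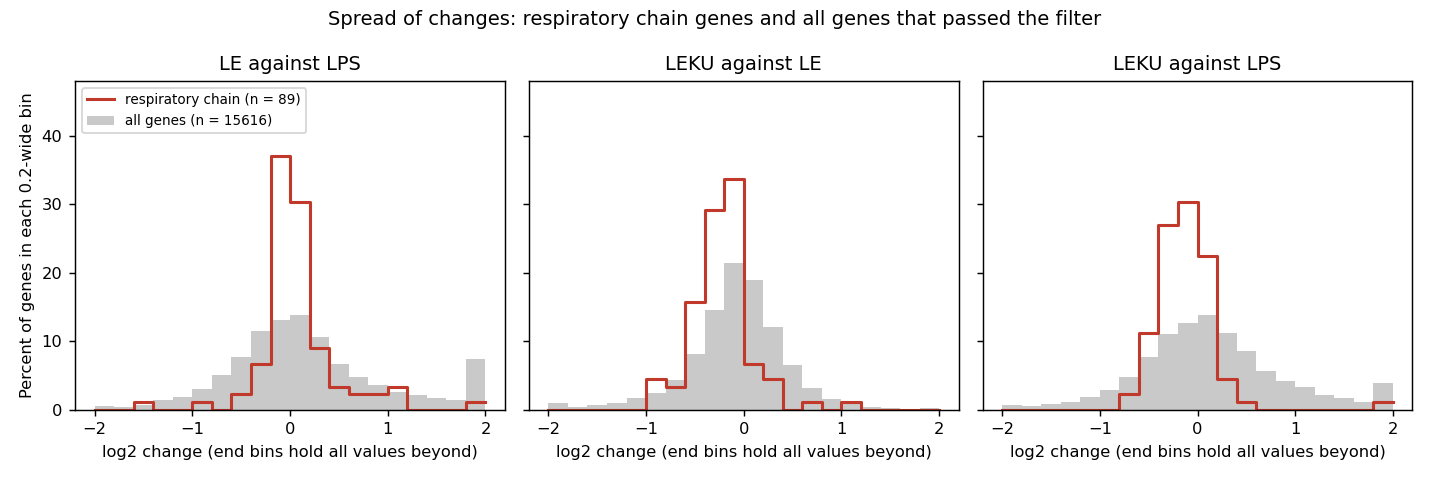
Percent of genes in each 0.2-wide bin of log2 change for the 3 comparisons, with all 15616 genes that passed the filter as grey bars and the 89 respiratory chain genes as a red line; the end bins hold all values beyond them. The respiratory chain genes gather in a narrower range (interquartile range 0.25, 0.33 and 0.34, against 0.86, 0.52 and 0.83), and in all 3 panels their fullest bin is the one from -0.2 to 0.

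The second comparison, LEKU against LE, asks what adding the ATM inhibitor before etoposide changed. Here most genes of the chain were somewhat lower with the inhibitor. The median change was -0.22, against -0.05 over all genes, and 66 of 89 genes lay below the all-gene median. The genes were lower by over 1.5-fold in 7 cases (Ndufa5, Ndufab1, Ndufb6, Ndufb2, Cox6b2, Cox4i2 and Cox7a1), where 12.1% of all genes were, and higher in 2 cases (Cox6a2 and Ndufaf3), where 6.85% of all genes were. The Cox4i2 call is fixed in part by the filter. In the columns as deposited 11 were lower, with Ndufa11, Uqcrb, Ndufa4 and Atp5j2 added, and with library totals 6 were, without Ndufb2. Ndufa11 was also lower by over 1.5-fold after quantile normalization (-0.59). The median less that of all genes was negative under each of 5 scalings (-0.22 to -0.17), and was -0.12 among genes with a mean of at least 1000.

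The last comparison, LEKU against LPS, sets cells with inhibitor and etoposide against undamaged cells. Only Cox6b2 was higher by over 1.5-fold, where 22.7% of all genes were, and Ndufaf3 and Cox7b, a ubiquitous complex IV subunit, were lower, where 13.3% of all genes were. The split was 1 higher and 6 lower with TMM factors, 2 and 1 with library totals and 2 and 0 in the columns as deposited. The Cox7b call was lost with library totals (-0.50), after quantile normalization (-0.52) and in the columns as deposited (-0.44), and the Ndufaf3 call only in the last, by a narrow margin (-0.58). The median change was -0.16, against 0.09 over all genes, and 76 of 89 genes lay below the all-gene median. The median less that of all genes was -0.25 to -0.14 over the 5 scalings, and -0.06 among genes with a mean of at least 1000. The 3 comparisons share conditions (LE enters the first 2, LPS the first and the last), so a high or low value in 1 condition enters 2 of them.

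**Figure D3:**
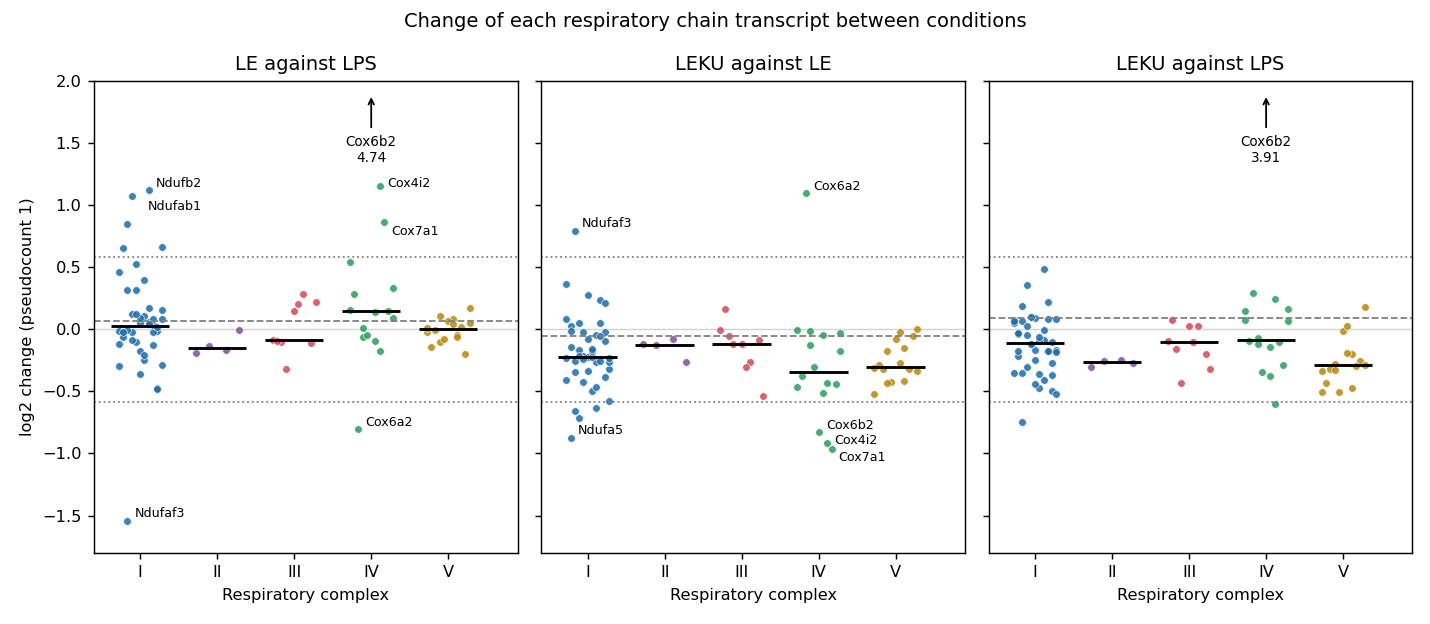
Log2 change (pseudocount 1) of each of the 89 respiratory chain genes that passed the filter, 1 point per gene, by complex and comparison. Black bars are medians per complex, dotted lines mark 1.5-fold, the dashed line is the median of all genes, and arrows carry Cox6b2, which lies off the axis at 4.74 and 3.91. With these size factors the points of complexes II, III and V stay within 1.5-fold in every panel, and those beyond it belong to complexes I and IV.

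Complex I, the NADH dehydrogenase, was represented by 7 nuclear-encoded catalytic core subunits, 29 accessory subunits and 8 assembly factors, all of which passed the filter. None of the core subunits, which carry the flavin and iron-sulfur clusters, passed 1.5-fold in any comparison with these size factors. Ndufv1, which binds NADH, was at 2122 in LPS, 2094 in LE and 2076 in LEKU. The lowest core value relative to LPS was that of Ndufs7, at 1026, 735 and 849, a log2 change of -0.48 in LE, which was past 1.5-fold with TMM factors (-0.62). The core median was -0.12 in LE against LPS and -0.05 in LEKU against LE.

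The accessory subunits, which surround the core, spread further. Their median was 0.09 in LE against LPS and -0.26 in LEKU against LE, and 25 of 29 lay below the all-gene median in the second comparison, against 2 of the 7 core subunits. The accessory median less that of all genes ran from -0.27 to -0.20 over the 5 scalings in that comparison, and the core median from 0.00 to 0.04.

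Ndufb2 had a value of 305 (counting interval 288 to 324) in LPS, 664 (640 to 689) in LE and 428 (408.5 to 449) in LEKU. This is a log2 change of 1.12 ± 0.05 (counting SE) in LE against LPS, -0.63 ± 0.04 in LEKU against LE and 0.49 ± 0.06 in LEKU against LPS. The last change passed 1.5-fold with library totals (0.59) and in the columns as deposited (0.65). Ndufab1, the mitochondrial acyl carrier protein, which also serves fatty acid synthesis and iron-sulfur cluster assembly, was the member of highest level to pass 1.5-fold in LE against LPS, at 1510 in LPS, 3183 in LE and 1938 in LEKU. Its log2 changes were 1.08 ± 0.02, -0.72 ± 0.02 and 0.36 ± 0.03. For both genes LE was the highest condition and LEKU lay between LE and LPS. The 3 counting intervals did not overlap, but they hold no spread between replicates and the genes were named for their large changes.

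Ndufb6 was at 404 in LPS, 727 in LE and 461 in LEKU. Ndufa11 was at 759, 1203 and 804. Ndufa5 was at 447, 706 and 385, and was the accessory subunit with the lowest change in LEKU against LE (-0.87). These 3 genes also stood highest in LE, and in Ndufa5 alone of the 5 accessory subunits past 1.5-fold the LEKU value was under that of LPS. With TMM factors Ndufa11 also lay slightly under LPS in LEKU, and neither Ndufa11 (0.52) nor Ndufa5 (0.52) passed 1.5-fold in LE against LPS. At the other end, Ndufs4, an accessory subunit whose loss causes Leigh syndrome in humans, had the lowest accessory change in LE against LPS (-0.29), at 992, 814 and 692. In LEKU against LPS Ndufs4 was past 1.5-fold with TMM factors (-0.61) and after quantile normalization (-0.59). Ndufa6 was the accessory subunit with the highest change in LEKU against LE (0.24), at 1162, 1148 and 1352.

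Among the assembly factors, Ndufaf3 was at 271 (254 to 288) in LPS, 92.2 (83.4 to 102) in LE and 161 (149 to 173.5) in LEKU. It was thus 2.94-fold lower in LE than in LPS, a log2 change of -1.54 ± 0.09, which placed it 169th from the lowest of 15616 genes. Its change was 0.80 ± 0.09 in LEKU against LE and -0.75 ± 0.07 in LEKU against LPS. LE was the lowest condition. The 3 counting intervals did not overlap, but here too they hold no spread between replicates and the gene was named for its large change. The gene shares 48 bp on opposite strands with Impdh2, an enzyme of guanine nucleotide synthesis at 9512, 11590 and 10810. The other assembly factors stayed within 1.5-fold, from Ndufaf4 (734, 529.5 and 520.5) to Ndufaf1 (556, 619 and 495). With TMM factors, however, Ndufaf4 was past 1.5-fold in LE (-0.61) and in LEKU (-0.59) against LPS, and after quantile normalization Ndufaf2 was in LEKU against LPS (-0.67). Of the 8 assembly factors, 7 lay below the all-gene median in LE against LPS, and their median less that of all genes was -0.28 to -0.27 over the 5 scalings. Atp5sl is also counted here, as a complex I assembly factor despite its name, and was at 1199, 977 and 1261.

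Complex II, succinate dehydrogenase, links the chain to the citric acid cycle. Its 4 genes differed little between conditions. Sdha, the flavoprotein, was at 6798 in LPS, 5969 in LE and 5503 in LEKU. Sdhb, the iron-sulfur subunit, was at 2304, 2058 and 1946. The membrane anchors were at 1563, 1428 and 1307 (Sdhc) and at 2808, 2800 and 2327 (Sdhd). With these size factors all 4 were lowest in LEKU, with log2 changes against LPS between -0.30 and -0.24, and none passed 1.5-fold in any comparison. Relative to all genes the complex II median in LE against LPS was -0.22 to 0.02 over the 5 scalings, so its direction there depended on the scaling.

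Complex III, which passes electrons from ubiquinol to cytochrome c, also held no gene past 1.5-fold with these size factors. Cyc1, cytochrome c1, was at 2840 in LPS, 2677 in LE and 2662 in LEKU, and Uqcrfs1, the Rieske iron-sulfur protein, at 2436, 2259 and 2125. Uqcr10 had the highest change in LE against LPS (0.29), at 1362, 1662 and 1386, and Uqcr11 the lowest (-0.32), at 609, 488 and 450. Uqcrb had the lowest change in LEKU against LE (-0.54, and -0.62 and so past 1.5-fold in the columns as deposited), at 1168, 1362 and 937, and Uqcrq the highest (0.17), at 1367, 1280 and 1437.

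Complex IV, cytochrome c oxidase, held the widest range of changes in the chain. Among its 11 ubiquitous subunits the median was 0.09 in LE against LPS and -0.30 in LEKU against LE, 8 of the 11 lay below the all-gene median in the latter, and Cox7b alone passed 1.5-fold in any comparison, in LEKU against LPS. Cox4i1 was at 5996 in LPS, 8736 in LE and 6320 in LEKU, the highest change of a ubiquitous subunit in LE against LPS (0.54). It passed 1.5-fold there with library totals (0.59), after quantile normalization (0.73) and in the columns as deposited (0.79), where Cox8a also did (0.59). Ndufa4, first named as a complex I subunit and now placed in complex IV, was at 2291, 2521 and 1762, with the lowest change in LEKU against LE (-0.52). Cox7b was at 2451, 2177 and 1612, a log2 change of -0.60 ± 0.02 in LEKU against LPS that passed 1.5-fold with these size factors and with TMM factors, and under no other scaling. Cox5a was nearly level at 791, 759 and 754. Cox7a2l, which takes part in joining complexes III and IV into supercomplexes, was at 5797, 6471 and 6430.

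Cox6b2 stood apart from all other genes of the chain. Its value was 42.0 (35.6 to 49.15) in LPS, 1146 (1115 to 1179) in LE and 645 (620 to 670) in LEKU. It was 27.3-fold higher in LE and 15.4-fold higher in LEKU than in LPS, and 1.78-fold lower in LEKU than in LE. The log2 changes were 4.74 ± 0.12, 3.91 ± 0.12 and -0.83 ± 0.03. In LE against LPS it was the 56th highest of 15616 genes, and in LEKU against LPS the 37th highest. The gene lies on chromosome 7 (4751792 to 4753094, minus strand, GRCm38) between Kmt5c and Fam71e2. Kmt5c was at 1338, 1158 and 1314 and had no comparable change. Fam71e2 was at 0.48, 1.27 and 0.65, too low for its change to be judged. The span of Fam71e2 (4753226 to 4771302, minus strand) takes in the upstream end of the Cox6b2 window printed above. Whether the neighbours play a part in the Cox6b2 values was not tested.

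The other tissue-restricted isoforms were low. Cox7a1, the heart and muscle isoform of subunit 7a, was at 48.0 in LPS, 87.9 in LE and 44.7 in LEKU, and its LPS and LEKU counting intervals overlapped. Cox4i2 was at 6.26, 15.2 and 7.61 with counting intervals of 3.97 to 9.41, 11.8 to 19.3 and 5.18 to 10.8. Cox6a2 went the other way, at 132 (121 to 144.5), 75.2 (67.2 to 83.8) and 162 (150 to 175), with log2 changes of -0.81 ± 0.10 in LE against LPS, 1.10 ± 0.10 in LEKU against LE and 0.29 ± 0.09 in LEKU against LPS. The whole of Cox6a2 (953 bp) lies within the span of Itgad, an integrin gene on the opposite strand, which was at 3.32, 27.3 and 7.18.

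**Figure D4:**
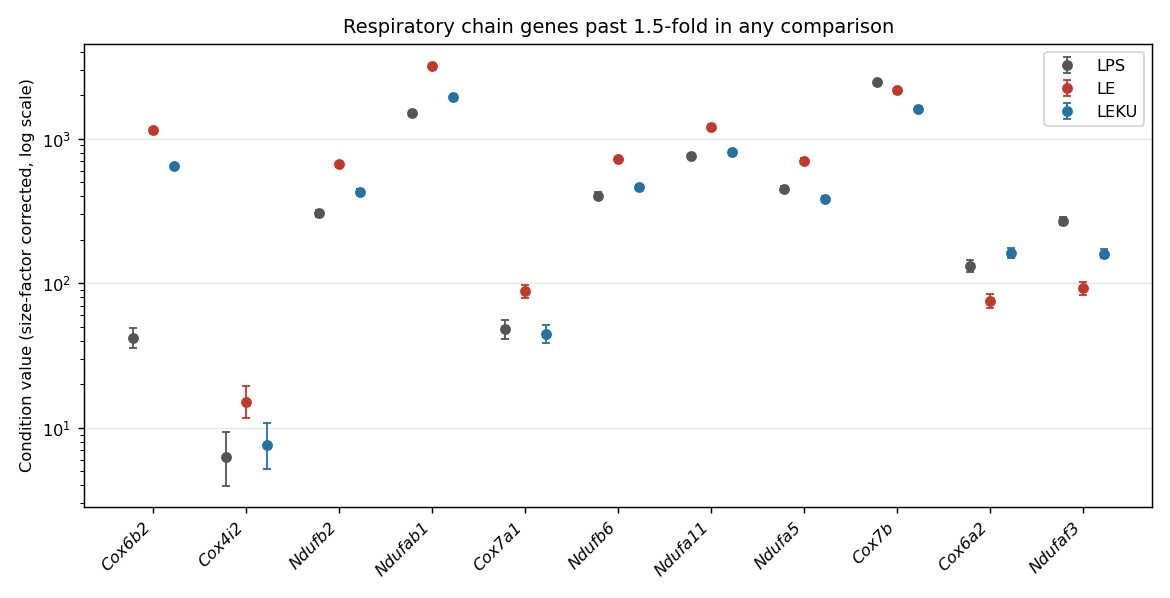
Condition value (log scale) of the 11 respiratory chain genes past 1.5-fold in any comparison, in LPS (grey), LE (red) and LEKU (blue). Bars are 95% counting intervals over the 4 columns of a condition and do not include the spread between replicates; where none is seen it is smaller than the point. Cox6b2 stands far above its LPS value of 42.0 in both etoposide conditions, while Ndufaf3 and Cox6a2 are lowest in LE.

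Shares within an isoform family do not depend on the scale factors set between conditions. Cox6b2 made up 1.02% of the Cox6b1 and Cox6b2 signal per kilobase in LPS, 20.3% in LE and 16.3% in LEKU, while Cox6b1 itself was at 2591, 2877 and 2119. Cox6a2 made up 6.26%, 3.89% and 8.28% of its pair, and Cox7a1 1.53%, 2.59% and 1.42% of the subunit 7a family. Cox4i2 and Ndufa4l2 stayed below 0.5% of theirs in every condition, and Cox7b2 and Cox8b below 0.05%. The ATP synthase c subunit is encoded by Atp5g1, Atp5g2 and Atp5g3, which share a mature protein and differ in their targeting peptides. Atp5g3 made up 49.5% of that family in LPS, 46.7% in LE and 43.0% in LEKU, Atp5g2 40.0%, 43.7% and 46.6%, and Atp5g1 10.5%, 9.56% and 10.3%. These shares depend on the exonic lengths. Without division by length Atp5g1 made up 22.8%, 21.1% and 22.8% of its family, Cox7a1 0.631%, 1.06% and 0.569%, and Cox6b2 1.59%, 28.5% and 23.3%.

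**Figure D5:**
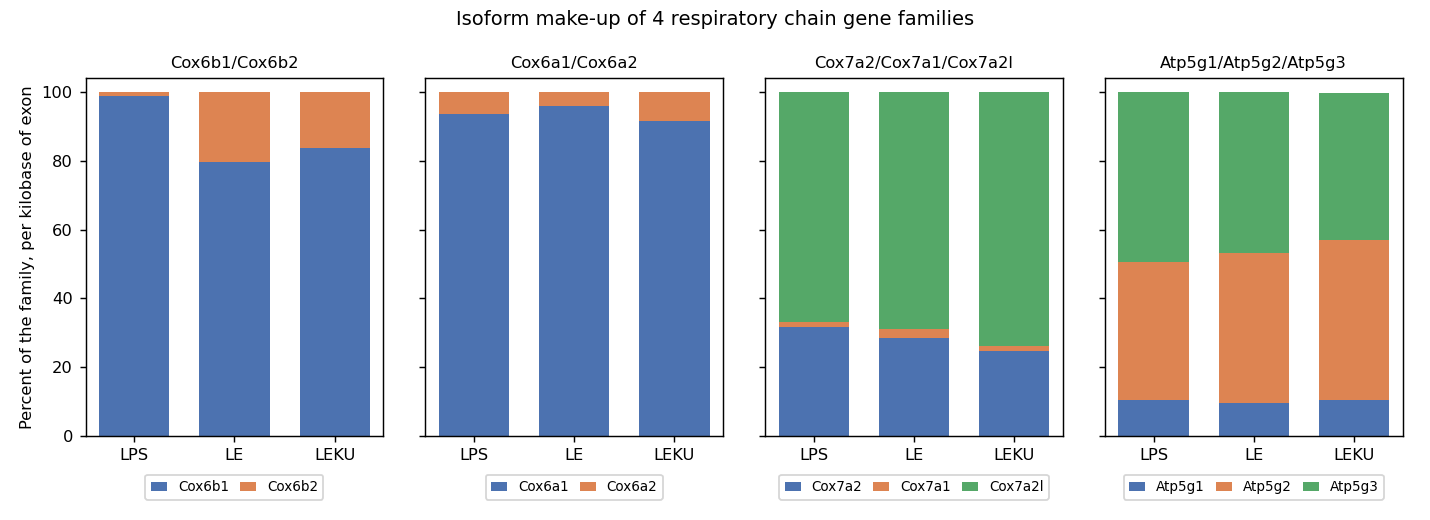
Stacked bars give the percent of each isoform family, per kilobase of exon, that each gene contributed in LPS, LE and LEKU. In the first panel Cox6b2 goes from 1.02% in LPS to 20.3% in LE and 16.3% in LEKU, and in the last Atp5g2 goes from 40.0% to 43.7% and 46.6%.

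Complex V held the most abundant genes and a narrow range of changes in LE against LPS, from -0.20 (Atp5g1) to 0.17 (Atp5d), with a median of 0.00. In LEKU against LE its median was -0.30, 14 of 16 genes lay below the all-gene median and none passed 1.5-fold with these size factors. In the columns as deposited Atp5j2 did (-0.61), and with TMM factors Atp5j and Atp5j2 were past it in LEKU against LPS (both -0.60). Over the 5 scalings the complex V median less that of all genes was -0.25 to -0.23 in LEKU against LE and -0.38 to -0.18 in LEKU against LPS. In LEKU against LE the medians differed between parts of the enzyme, each of which holds few genes. The membrane part (Atp5j2, Atp5k and Atp5l) had a median of -0.43 and the peripheral stalk that holds the head in place (Atp5f1, Atp5h, Atp5j and Atp5o) -0.33. The whole F1 part that makes ATP, called the head here (Atp5a1, Atp5b, Atp5c1, Atp5d and Atp5e), had -0.17 and the c ring -0.08. Single genes of the membrane part (-0.52 to -0.41) and the stalk overlapped, as did those of the head (-0.31 to 0.01) and the c ring (-0.29 to -0.06). In LEKU against LPS the c ring median (-0.25) was below that of the head (-0.20).

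Atp5j2 was at 2008 in LPS, 2027 in LE and 1413 in LEKU, the lowest change of complex V in LEKU against LE (-0.52). Atp5j, in the stalk, was at 2431, 2298 and 1709. The 4 stalk genes lay close together, between -0.43 and -0.32. In the head, Atp5a1 was at 24501, 24089 and 19366 and Atp5b at 30278, 29256 and 26335, both lowest in LEKU, whereas Atp5d was at 2752, 3105 and 3119. Of the c ring genes, Atp5g3 was at 4425, 4000 and 3274, Atp5g2 at 2745, 2878 and 2726 and Atp5g1 at 2114, 1844 and 1772. Atp5s, a coupling factor of low level, was at 154, 159 and 156.

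Other genes around the chain gave a mixed picture. Of 42 listed assembly factors and cytochrome c genes outside the naming rule, 39 passed the filter, and 5 were higher and 3 lower in LE than in LPS by over 1.5-fold, beside 24.1% and 13.5% of all genes. In the columns as deposited the 3 lower calls (Bcs1l, Coa3 and Tmem186) were lost, and Acad9, Atpaf1, Atpaf2, Coa5, Coa6 and Sdhaf4 were higher as well. The Tmem186 call was also lost with library totals. Cox10, Nubpl and Pet100 were lower too with TMM factors and after quantile normalization. The latter also made Sdhaf3 lower and Coa5 higher. Lyrm7, a complex III assembly factor, had the highest change (1.42), at 74.6, 202 and 151, and Coa3, a complex IV assembly factor, the lowest (-0.75), at 627, 373 and 437. Sdhaf1, which helps to mature the iron-sulfur subunit of complex II, was at 265, 569 and 507. Cycs, somatic cytochrome c, which carries electrons from complex III to complex IV and also triggers apoptosome assembly, was at 2235, 2787 and 1846 and was the lowest of the list in LEKU against LE (-0.59).

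Among 12 listed regulators of respiratory gene transcription, 11 passed the filter, and 3 were higher and 2 lower in LE by over 1.5-fold, beside the same 24.1% and 13.5% of all genes. The higher call of Sp1 was lost with TMM factors (0.57) and the lower call of Nrf1 in the columns as deposited (-0.42). Ppargc1b was lower as well with TMM factors and after quantile normalization. Esrra, a nuclear receptor that drives mitochondrial genes, was at 447 in LPS, 1490 in LE and 965 in LEKU, the highest change of the list (1.74). Gabpb1, the partner of Gabpa in GABP, was at 1387, 2984 and 2024. Myc had the lowest change in LE against LPS (-1.18), at 3624, 1604 and 1753, and Nrf1 was at 1482, 931 and 886. The coactivator Ppargc1b was lowest in LEKU, at 163, 116 and 70.3, and Ppargc1a highest there, at 49.1, 53.5 and 98.3.

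For mitochondrial DNA expression and maintenance, 11 of 12 listed genes were in the table and passed the filter, and 1 was higher by over 1.5-fold in LE than in LPS, where 24.1% of all genes were, Polrmt (mitochondrial RNA polymerase) at 865, 1554 and 1233. In the columns as deposited Tefm and Tfb2m were higher as well. Tfam, which packages mitochondrial DNA and activates its transcription, was at 2156, 2481 and 1864. The 17 enzymes of the citric acid cycle and pyruvate dehydrogenase had a median of -0.13 in LE against LPS, with 2 lower by over 1.5-fold, where 13.5% of all genes were, and none higher. Relative to all genes that median ran from -0.20 to 0.06 over the 5 scalings. The lower genes were the succinyl-CoA synthetase subunits Suclg2, at 2134, 1248 and 1144, and Suclg1, at 2059, 1356 and 1310. The Suclg1 call was lost with library totals, after quantile normalization and in the columns as deposited, and the Suclg2 call in the last. With TMM factors Fh1, Idh2 and Idh3g were lower by over 1.5-fold as well, and Idh2 also was after quantile normalization. In LEKU against LPS, 16 of the 17 lay below the all-gene median, beside 76 of 89 respiratory chain genes and 62.9% of all genes with a mean of at least 1000. Relative to all genes, the median of the 17 in that comparison ran from -0.33 to -0.04 over the 5 scalings. Cs, citrate synthase, was at 10585, 8205 and 8522, a log2 change of 0.05 in LEKU against LE. That is less than the all-gene median moved between scalings in this comparison (-0.14 to 0.01), so its direction there is not settled.

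Some values may include reads of neighbours. The libraries were made with a stranded kit per the study's methods, but the strand setting used for counting is not given in the sources used here, and 24 of the 92 genes overlap a protein-coding gene, all but 1 pair on opposite strands. Among the genes past 1.5-fold these were Ndufaf3, Ndufb2 (146 bp shared with Braf), Ndufb6 (350 bp with Smim27, at 35.3, 31.9 and 37.4), Ndufa11 (256 bp with Vmac, at 156, 301 and 357) and Cox6a2. Respiratory chain genes also have processed pseudogenes, with which reads of the parent gene may be shared.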

How the data were processed

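Polyadenylated RNA of 12 libraries (4 each of LPS, LE and LEKU) was sequenced from TruSeq libraries, and per the study's methods reads were mapped with TopHat2 and counted with HTSeq on the Ensembl 78 annotation of GRCm38. The submitters' processing notes also name Trim Galore, cutadapt 1.2.1, TopHat2 2.0.12 and DESeq2 1.6.3. The values used are a signal table of normalized counts deposited by the authors. Within a condition its columns are exactly proportional, so they hold fitted means and no replicate spread, and the limma test planned for per-library values could not be run. Whether DESeq2 moderated the fitted fold changes, and the authors' own size factors, are not given in the sources used here. Another 3 deposited tables hold the authors' own comparisons (fold changes and p-values) and were not used. The labels give the LPS, LE and LEKU libraries different sequencing indexes, and no other batch is given.

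Size factors were set by the median of ratios over genes with a mean above 100 (0.848 to 0.979 in LPS, 0.951 to 1.29 in LE, 0.897 to 1.10 in LEKU), and each condition's value is a column divided by its factor. The filter kept genes that reached 10 in 4 or more libraries, log2 changes used a pseudocount of 1, and a change counted past 1.5-fold. Counting intervals (95%) treat the sum of a condition's 4 columns as reads. These sums are fitted values, and the intervals cover counting error only. Gene positions and exon lengths came from GENCODE M21 (GRCm38), which matched 99.2% of the genes, and promoters from RefSeq (GRCm38.p6). The calculation was tested on simulated tables. Python 3.11.15, numpy 2.4.6, pandas 2.3.3, scipy 1.17.1 and matplotlib 3.10.9 were used.

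The genes named were the highest and lowest of each role in each comparison, all past 1.5-fold or below the filter, isoform families, Sdha to Sdhd and Cyc1, and the extremes of each pathway list, with further members added for their known role. The genes, lists and rules were chosen with earlier results of these data known. Other scalings (TMM, library totals, quantiles, columns as deposited), pseudocounts, filters, fold limits and single libraries left out were tried, and a restriction to genes with a mean of at least 1000 was added after seeing the data. Values of a few genes are not reported here.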

Additional observations from a re-analysis of the deposited data

How the results depend on the processing

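Each gene has 1 value per condition, without a replicate spread. Leaving out a library could change little but the size factors, since the columns of a condition are proportional, so the small shift of the group medians (at most 0.0186) says nothing about their stability. No paired analysis was possible because the columns of a condition are proportional and hold no values per replicate, although the labels share replicate numbers. Among the 89 respiratory chain genes and 78 genes of the pathway lists that passed the filter (501 changes), none past 1.5-fold turned direction under the other scalings, pseudocounts or filters. This was largely fixed in advance and says little about stability. A pseudocount or a filter cannot turn a direction, and each scale factor shifted all genes alike by less than 1.5-fold. Only quantile normalization could have turned such a change. Numbers below are genes past 1.5-fold of the respiratory chain, or median log2 changes, in the order LE against LPS, LEKU against LE and LEKU against LPS where 3 are given.

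With TMM factors the medians were -0.13, -0.18 and -0.25, and 4 and 6 genes were lower in LE and in LEKU than in LPS. With library totals the medians were 0.0592, -0.162 and -0.0538, and LEKU against LPS had 2 genes higher and 1 lower. In the columns as deposited the medians were 0.26, -0.31 and 0.0071, 13 genes were higher and 1 lower in LE than in LPS, 11 were lower in LEKU than in LE, and 2 were higher and 0 lower in LEKU than in LPS. The medians less those of all genes were 0.11, -0.22 and -0.14 after quantile normalization and -0.0268, -0.202 and -0.173 with no filter, where 2 genes were higher in LEKU than in LPS. With a mean of at least 50 they were 0.0037 in LE against LPS and -0.19 in LEKU against LPS.

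At 2-fold, 4 genes were higher and 1 lower in LE than in LPS, 1 was higher and 0 lower in LEKU than in LE, and 0 were lower in LEKU than in LPS. At a limit of 0.32 on the log2 scale, 13 were higher and 5 lower in LE than in LPS, 27 were lower in LEKU than in LE, and 3 were higher and 21 lower in LEKU than in LPS. Shares of all genes at these fold limits are not given, so the counts show only how the calls depend on the limit. Among genes with a mean of at least 1000, an alternative chosen after seeing the data, 1 was higher and 0 lower in LE than in LPS, 0 higher and 1 lower in LEKU than in LE, and 0 higher and 1 lower in LEKU than in LPS. The median of LEKU against LE was then -0.18, and the medians less those of all genes were 0.07, -0.116 and -0.0636. The median level per kilobase in LPS was 1278 with the longest transcript and 3045 with the coding length in place of the union of exons. The cause of these shifts was not tested beyond what each setting does by construction (another scale, fold limit, length or set of genes).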
